A study of Mus musculus with 5 samples.

Results

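Cyclooxygenases, the terminal synthases that act on their product, and the EP receptors for prostaglandin E2 were followed in mouse hippocampus after seizures. The genes were chosen by name, as those whose symbol in the deposited count tables equals Ptgs1, Ptgs2, Ptges, Ptges2, Ptges3, Ptgds, Ptger1, Ptger2, Ptger3 or Ptger4, and all 10 were found among 55385 genes. The study asked which genes and exons are used differently after strong neuronal activity, and the RNA sequencing data held 5 libraries of total RNA from dissected hippocampi. Seizures were provoked in male C57/bl6 mice, 3 months old, by intraperitoneal kainic acid (20 mg/kg in PBS), a glutamate receptor agonist. Of the treated mice, the study kept only those whose seizures advanced to continuous rearing and falling. The groups were untreated mice (control, 1 library) and kainic acid-treated mice sacrificed 1 h (1 library), 4 h (2 libraries, called mouse 1 and mouse 2) and 8 h (1 library) after seizure onset. The control is labelled untreated rather than injected with vehicle, so effects of injection and of kainic acid cannot be told apart. Whether each library was made from a single mouse is not given in the sources used here, so mouse 1 and mouse 2 are names of libraries only.

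Cyclooxygenases turn arachidonic acid, released from membrane lipids by phospholipases, into the unstable prostaglandin H2. Terminal synthases convert this intermediate into single prostanoids such as prostaglandin E2 and prostaglandin D2, and E2 acts on neighbouring cells through G protein-coupled EP receptors. In the forebrain Ptgs2 is known as a gene of excitatory neurons that responds to synaptic activity.

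The libraries held 19100374 gene reads without treatment, 17744508 after 1 h, 18250114 (mouse 1) and 19109204 (mouse 2) after 4 h, and 16612225 after 8 h. Values are normalized CPM, gene counts relative to the library size after TMM scaling, and a count of 3, the floor used here, was between 0.151 CPM in the control and 0.178 CPM in mouse 1. Intervals are exact 95% intervals (Poisson for a count, binomial for a ratio of counts) and cover counting error only. In bulk tissue, fewer cells of a type and less RNA per cell cannot be told apart.

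Markers of hippocampal tissue were found in every library. The neuron list (6 of 6 detected, most abundant Snap25) summed to 3826, 4032, 4143, 3701 and 3404 CPM without treatment, after 1 h, after 4 h (mouse 1, then mouse 2) and after 8 h. Its genes did not move alike. Prox1, a marker of dentate granule cells, was at 60.0, 67.2, 171.6, 119.7 and 77.1 CPM, with both libraries at 4 h the highest. Gad1 was at 2.01 (mouse 1) and 1.48 (mouse 2) times the control at 4 h, whereas Rbfox3 was at 0.689 and 0.692 and Slc17a7 at 0.791 and 0.903 times. The astrocyte list (5 of 5 detected, most abundant Slc1a3) summed to 1117, 1190, 1714, 1557 and 1455 CPM in the same order. At 8 h its higher sum came from Gfap, at 221.1 CPM in the control and 587.4 CPM at 8 h, while the other 4 genes were between 0.507 (Gja1) and 1.14 (Slc1a3) times the control. The part of these cells in the values of the 10 genes was not tested. One library stood apart in another respect. The choroid plexus list (6 of 6 detected, most abundant Ttr) summed to 4017 CPM without treatment, 1702 after 1 h, 29.3 (mouse 1) and 4294 (mouse 2) after 4 h, and 3112 after 8 h. None of these 6 markers was at 0 in mouse 1, and the lowest, Slc4a5, had 2 counts there against 503 in mouse 2.

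**Figure D1:**
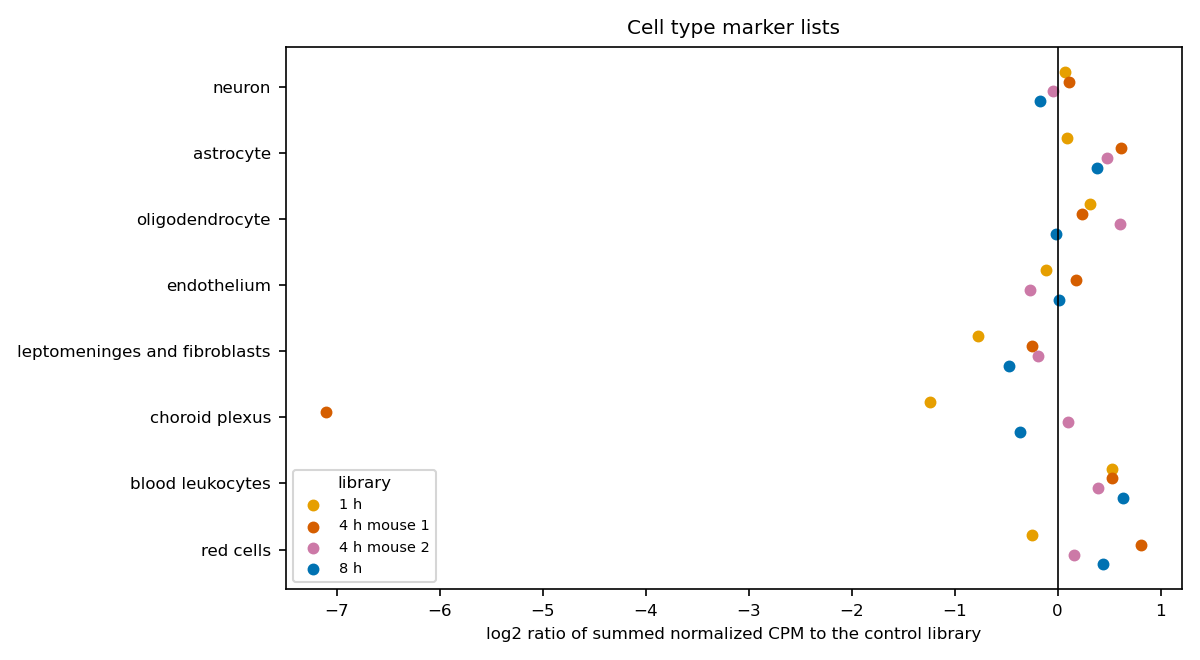
Summed normalized CPM of cell type marker lists, as the log2 ratio to the control library (horizontal axis), for the libraries at 1 h, 4 h (mouse 1 and mouse 2) and 8 h after seizure onset (points). The choroid plexus list summed to 29.3 CPM in mouse 1 at 4 h against 4017 CPM in the control, whereas the neuron list lay between 3404 and 4143 CPM in all 5 libraries.

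Ptgs2 stood far above the control at 1 h and 4 h, Ptges stood about 3-fold above it at every time point, and Ptgs1, Ptges2, Ptges3 and Ptgds stayed within 1.3-fold of it. The 4 EP receptors, with few counts, varied more. All 10 genes passed the expression filter of edgeR. At 1 h, 2 of the 10 genes (Ptgs2 and Ptges) were at least 2-fold higher than the control, against 5.41% of the 19768 genes tested. At 4 h, 3 of the 10 (Ptgs2, Ptges and Ptger2) were so in both libraries, against 4.96% of all genes, although Ptger2 was kept by the filter only through these libraries and with at least 10 counts in every library the count was 2 of 8, against 483 of 16420 genes. At 8 h 2 of the 10 (Ptgs2 and Ptges) were so, against 6.79%. With at least 10 counts in every library, 2 of 8 were so at 1 h, against 470 of 16420 genes. At 8 h 2 of 8 were so under this filter, against 559 of 16420. None of the 10 was at least 2-fold lower at 1 h (3.8% of all genes), in both libraries at 4 h (1.51%) or at 8 h (3.37%). With scaling by library size alone 1 gene, Ptger2, with 4 counts, crossed this line at 1 h. In mouse 1 alone 4 genes were at least 2-fold higher, Ptger4 being the added one, against 11.9% of all genes, and in mouse 2 alone also 4, with Ptger1 added, against 6.59%.

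By the quasi-likelihood test of edgeR with Benjamini-Hochberg adjustment, 0 of the 10 genes passed at 1 h (0% of all genes), 0 at 4 h (0.00506%, which is 1 gene, ETV3L, named after its value was seen) and 0 at 8 h (0%). The comparisons of 4 h with 1 h (0.00506%, again ETV3L) and of 8 h with 4 h (0%) also gave 0 of the 10. Of the 19768 genes, 478, 2291 and 892 had an unadjusted p under 0.05 at 1, 4 and 8 h, and 1569 and 1726 did so in the comparisons between time points. DESeq2 passed 56, 238 and 33 genes at 1, 4 and 8 h, of which 0, 1 (Ptgs2) and 0 were among the 10, and limma-voom passed 0 genes at each time point. Only the 4 h time point is replicated, so the single libraries were assumed to vary like the pair of mouse 1 and mouse 2. The p-values measure the spread of that pair alone, which may be technical. All 3 comparisons with the control share its 1 library, so a deviation of that library would enter each of them. An adjusted p given for a gene comes from this quasi-likelihood test with Benjamini-Hochberg adjustment over all 19768 genes, except for ranges over alternative fits.

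**Figure D2:**
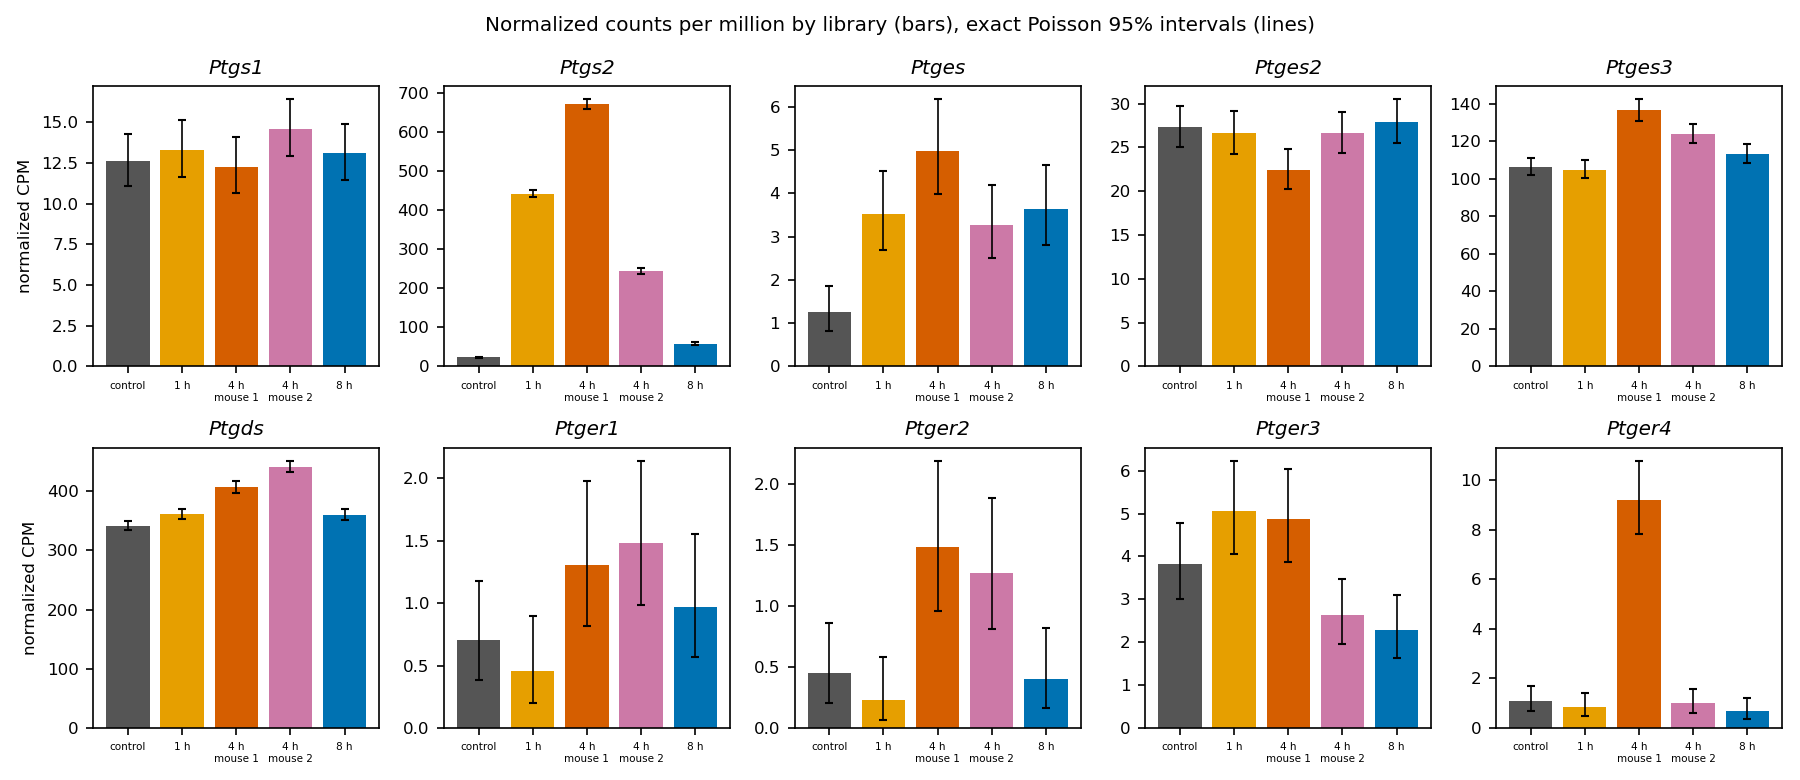
Normalized CPM (vertical axes, from 0) of the 10 genes in the control, 1 h, 4 h (mouse 1 and mouse 2) and 8 h libraries, with bars for single libraries and lines for exact Poisson 95% intervals. Ptgs2 was at 23.2 CPM in the control and at 671.6 CPM in mouse 1, and Ptger4 was high in mouse 1 alone, at 9.21 CPM.

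Ptgs2 (ENSMUSG00000032487.8), which encodes the inducible cyclooxygenase-2, occupies chr1:150100031-150108227 (GRCm38, plus strand). Its promoter is shown because its level moved most, beside those of Ptges, which was also higher at every time point, and of Ptgs1, which was not. Each is the RefSeq window of GRCm38.p6 from 250 bases before to 50 bases after the transcription start, at chr1:150099781-150100080 (plus strand), chr2:30903248-30903547 (minus strand) and chr2:36230176-36230475 (plus strand). Capitals mark matches to any motif searched.
Ptgs2: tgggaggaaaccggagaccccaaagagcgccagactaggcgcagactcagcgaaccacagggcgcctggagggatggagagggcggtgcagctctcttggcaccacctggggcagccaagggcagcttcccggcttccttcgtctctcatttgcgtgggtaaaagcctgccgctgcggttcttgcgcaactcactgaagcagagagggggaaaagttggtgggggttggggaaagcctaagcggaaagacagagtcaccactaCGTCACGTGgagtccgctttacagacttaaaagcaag
Ptges: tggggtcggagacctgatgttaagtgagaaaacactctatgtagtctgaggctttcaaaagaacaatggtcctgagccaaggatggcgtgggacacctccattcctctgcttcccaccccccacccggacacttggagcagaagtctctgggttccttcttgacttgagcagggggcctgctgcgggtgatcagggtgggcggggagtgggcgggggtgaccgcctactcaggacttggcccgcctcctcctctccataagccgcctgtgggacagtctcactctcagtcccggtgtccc
Ptgs1: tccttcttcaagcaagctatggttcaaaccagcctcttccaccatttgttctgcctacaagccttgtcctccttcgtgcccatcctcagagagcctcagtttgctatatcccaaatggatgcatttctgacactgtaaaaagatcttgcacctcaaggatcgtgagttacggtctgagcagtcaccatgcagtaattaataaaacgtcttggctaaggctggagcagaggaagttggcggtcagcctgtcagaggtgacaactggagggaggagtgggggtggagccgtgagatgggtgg
The motifs were chosen after the values were seen and searched on both strands in the promoters of the 9 genes with an entry. They were the cyclic AMP response element TGACGTCA (held by 1.79% of 32851 promoters of this length), its core TGACG (20.8%), the E-box CACGTG (7.15%), the AP-1 site TGANTCA (7.81%), the NF-kB site (GGGA, any base, TTTCC; 0.411%), TATAA (24.9%) and CCAAT (37.4%). Ptgs2 held the core on the reverse strand and an E-box, which overlap each other and begin at bases 13 and 16 after the start base. Ptges and Ptgs1 held none of these motifs in this window, Ptges2 an E-box, Ptges3 the core, Ptgds an AP-1 site, Ptger2 and Ptger4 each a CCAAT, and Ptger3 none. A match of letters is not a binding site, and binding was not measured.

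Reads counted on Ptgs2 numbered 461 without treatment, 7778 after 1 h, 11308 (mouse 1) and 4621 (mouse 2) after 4 h, and 1028 after 8 h. In the same order this is 23.2, 442.5, 671.6, 244.4 and 58.6 CPM. All 4 libraries from treated mice lay above the control, and no pair of the 5 Poisson intervals overlapped. The ratio to the control was 19.1 at 1 h (95% interval 17.4 to 21.0), 29.0 in mouse 1 (26.4 to 31.9), 10.6 in mouse 2 (9.59 to 11.6) and 2.53 at 8 h (2.27 to 2.83). The libraries at 4 h lay on both sides of the 1 h library, so the time of the highest level is not set by these data. Of 18127 genes with at least 10 counts in the control, 19 had a larger ratio than Ptgs2 at 1 h, 8 in mouse 1, 13 in mouse 2 and 230 at 8 h.

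The log2 fold change of Ptgs2 was 4.25 ± 0.74 (SE) at 1 h, 4.30 ± 0.71 at 4 h and 1.34 ± 0.67 at 8 h, with adjusted p of 1, 0.245 and 1 from edgeR. Against 4 h, the 8 h library was lower, with a log2 fold change of -2.96 ± 0.65 (adjusted p = 0.463 from edgeR), and 4 h against 1 h gave 0.05 ± 0.55 (adjusted p = 0.992). Over the 9 alternative fits the adjusted p at 4 h ranged from 1.97e-66 (no filter) to 0.327, and 5 of them passed Ptgs2. These were DESeq2, assumed coefficients of variation of 0.2 and 0.4, library size alone and no filter. At 1 h the adjusted p ranged from 3.91e-60 (no filter) to 1, with 4 passes, by the same fits without DESeq2. All fits share the same 5 libraries, so their passes are not independent. The smaller prior count alters the fold change only, so its adjusted p is that of the main fit. Without mouse 1, the log2 fold change at 4 h was 3.39, and without mouse 2 it was 4.85, both with no test. For 8 h against 4 h it was -2.057 without mouse 1 and -3.515 without mouse 2, also with no test.

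Ptgs1 (ENSMUSG00000047250.13), the constitutive cyclooxygenase-1, was at 12.6 CPM without treatment, 13.3 after 1 h, 12.3 (mouse 1) and 14.6 (mouse 2) after 4 h, and 13.1 after 8 h. The Poisson intervals of all 5 libraries overlap. Its ratio to the control lay between 0.975 and 1.16, and each of the 4 binomial intervals included a ratio of 1, with bounds between 0.807 and 1.38. The sign of the Ptgs1 log2 fold change at 4 h, 0.09 ± 0.27 (SE), turned with scaling by library size alone (-0.03) and without mouse 2 (-0.04).

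Per kilobase of exon, Ptgs2 over Ptgs1 was 1.56 in the control (1.33 to 1.82), 28.2 at 1 h (24.7 to 32.2), 46.3 in mouse 1 (40.4 to 53.4), 14.2 in mouse 2 (12.6 to 16.1) and 3.79 at 8 h (3.28 to 4.39). Ptgs2 was the higher in every library, and the cyclooxygenases were nearest to each other in the control. Among the genes tested, 61.3% had a lower level per kilobase than Ptgs2 without treatment, 98.4% after 1 h, 99.2% (mouse 1) and 96.5% (mouse 2) after 4 h, and 82.2% after 8 h.

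**Figure D3:**
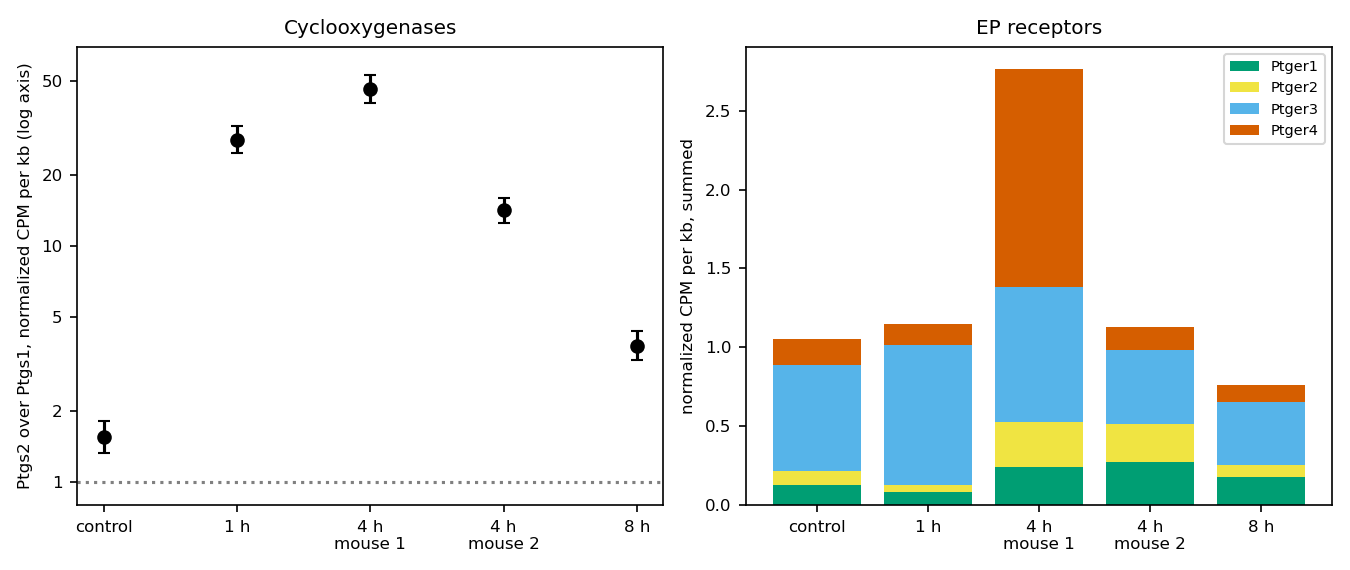
Left, the level of Ptgs2 over that of Ptgs1 per kilobase of exon in each library (log axis, points with exact binomial 95% intervals, dotted line at a ratio of 1), which was 1.56 without treatment and reached 46.3 in mouse 1. Right, normalized CPM per kilobase of the 4 EP receptor genes stacked in each library, where Ptger4 made up 50.1% of the sum in mouse 1 and between 11.2% and 15.8% in the other libraries.

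The libraries at 4 h differed in Ptgs2 by 2.75-fold (mouse 1 over mouse 2), a larger difference than for 97.5% of 17336 genes with at least 10 counts in both. The early genes, transcription factors and Arc that neurons are known to induce within minutes of activity, differed in the same direction. Fos was at 10.8 CPM without treatment, 999.2 after 1 h, 519.3 (mouse 1) and 70.4 (mouse 2) after 4 h, and 17.2 after 8 h. Npas4 was at 3.92, 694.3, 130.0, 4.92 and 5.13 CPM, and Arc at 147.5, 2022, 2593, 928.0 and 151.6 CPM in the same order. Mouse 1 thus lay above mouse 2 in all 6 early genes, by 7.38-fold for Fos, 26.4-fold for Npas4, 4.71-fold for Nr4a1, 3.96-fold for Fosb, 3.21-fold for Egr1 and 2.79-fold for Arc. Fos, Fosb, Egr1, Npas4 and Nr4a1 were highest at 1 h, whereas Ptgs2 and Arc were highest in mouse 1. At 8 h Ptgs2 and, of the 6, Fosb alone (2.77-fold) remained at least 2-fold above the control. What set mouse 1 and mouse 2 apart was not tested.

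**Figure D4:**
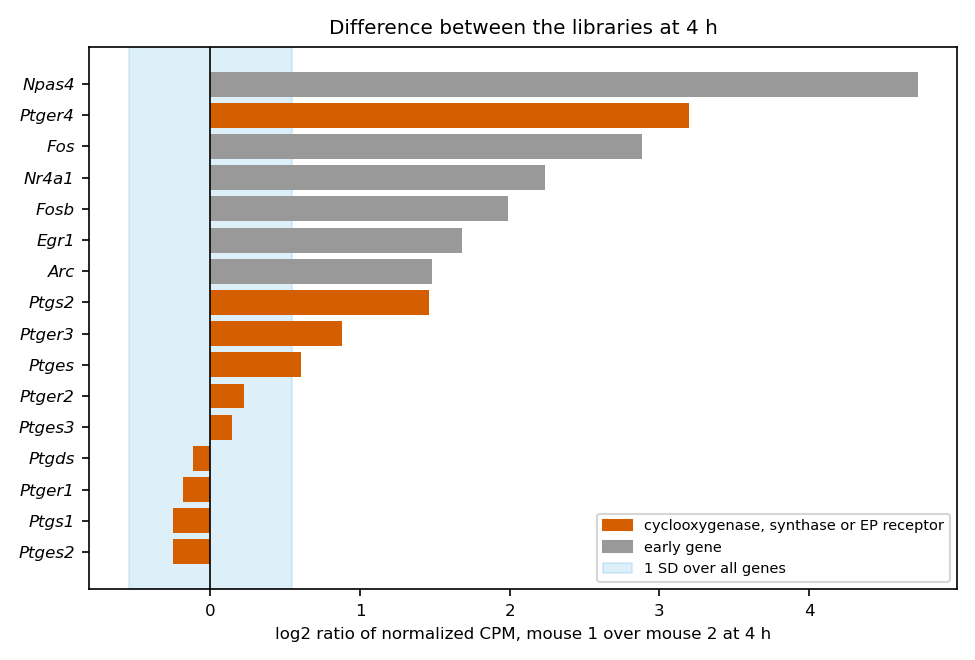
The log2 ratio of normalized CPM of mouse 1 over mouse 2 at 4 h (horizontal axis) for the 10 genes and 6 early genes (bars), with the band of 1 SD of this ratio over 17336 genes (0.54). Ptger4 differed by 9.16-fold and Ptgs2 by 2.75-fold, and all 6 early genes were higher in mouse 1.

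By the distance of the log2 ratios in the 4 libraries from treated mice, the genes most like Ptgs2 were Gadd45b (distance 0.64), Pim1 (1.01), Maff (1.05), Mir132 (1.13) and Pcdh8 (1.19). Gadd45b had 144 counts without treatment, 1855 after 1 h, 2560 (mouse 1) and 1365 (mouse 2) after 4 h, and 366 after 8 h. In Gadd45b, Pim1 and Pcdh8, as in Ptgs2, mouse 1 at 4 h was the highest library, whereas Maff and Mir132 were highest at 1 h. Maff and Mir132 rest on 13 and 4 control counts.

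Ptgs2os (ENSMUSG00000097028.2), annotated on the opposite strand from 150074873 to 150099963 of chromosome 1, begins next to the start of Ptgs2, pointing away from it, and shares 0 exon bases with it. It had 12 counts without treatment, 40 after 1 h, 49 (mouse 1) and 42 (mouse 2) after 4 h, and 36 after 8 h. Its ratio to the control was 3.77 at 1 h (1.94 to 7.90), 4.83 in mouse 1 (2.53 to 9.97), 3.68 in mouse 2 (1.90 to 7.69) and 3.41 at 8 h (1.73 to 7.19). All 4 intervals lie above 1 and overlap each other, unlike those of Ptgs2. Ptgs2os2, farther along the chromosome, had 1, 2, 9, 8 and 5 counts. The strand setting of the counting is not given, so reads of a gene and of one on its opposite strand may be mixed where they overlap.

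The longest annotated 3′ untranslated region of Ptgs2, 2445 bases, holds 14 copies of AUUUA, the core of AU-rich elements, which are known from short-lived mRNAs. Of 19924 genes, 96.9% have fewer copies (median 1 copy), and 94.9% have fewer per kilobase than the 5.73 of Ptgs2. Ptges, Ptgs1, Ptgds and Ptger1 have 0 copies, Ptges2, Ptges3 and Ptger3 4 each, Ptger4 5 and Ptger2 6. The decay of these mRNAs was not measured.

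Of the prostaglandin E synthases, Ptges (ENSMUSG00000050737.13), the inducible microsomal enzyme known to work with cyclooxygenase-2, had 25 counts without treatment, 62 after 1 h, 84 (mouse 1) and 62 (mouse 2) after 4 h, and 64 after 8 h. In CPM it was at 1.26, 3.53, 4.99, 3.28 and 3.65. The intervals of the 4 libraries from treated mice overlapped each other and lay above that of the control (0.813 to 1.85). The ratio to the control was 2.81 at 1 h (1.74 to 4.66), 3.97 in mouse 1 (2.52 to 6.48), 2.61 in mouse 2 (1.62 to 4.34) and 2.91 at 8 h (1.81 to 4.82). At 8 h the ratio of Ptges and that of Ptgs2 (2.53) were of like size, although that of Ptgs2 had been several times larger earlier. The log2 fold change of Ptges was 1.41 ± 0.56 (SE) at 1 h, 1.63 ± 0.51 at 4 h and 1.46 ± 0.56 at 8 h, with adjusted p of 1, 0.357 and 1 from edgeR. At 4 h the adjusted p over 9 alternative fits ranged from 0.0107 to 1, with 2 passes. The blood leukocyte list (5 of 5 found, Cd3e and Ly6g at or below the floor) summed to 4.82, 6.94, 6.95, 6.35 and 7.47 CPM in the same order. Most of each sum was Ptprc, at 3.8, 5.4, 5.8, 5.1 and 6.3 CPM. The list did not move as a whole. S100a8 had 8, 6, 9, 8 and 5 counts, and S100a9 had 11, 20, 10, 16 and 15. Of microglia markers at 4 h, P2ry12 was at 0.436 (mouse 1) and 0.558 (mouse 2) times the control, Csf1r at 0.968 and 0.966 and C1qa at 1.40 and 1.26 times. The part of these cells in the level of Ptges was not tested.

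The genes most like Ptges by the same distance were Gm17435 (0.21), Gm49838 (0.42), Neat1 (0.43), Gm47920 (0.44) and Gm8741 (0.57). Neat1, an abundant nuclear long noncoding RNA, had 1113 counts without treatment, 2373 after 1 h, 4070 (mouse 1) and 2198 (mouse 2) after 4 h, and 2601 after 8 h. The others had between 14 and 21 counts in the control, so their place in this order is uncertain.

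Ptges2, a membrane-associated prostaglandin E synthase, was at 27.3, 26.6, 22.5, 26.7 and 27.9 CPM without treatment, after 1 h, after 4 h (mouse 1, then mouse 2) and after 8 h. Mouse 1 was the lowest, with a ratio of 0.823 (0.720 to 0.940), and the other ratios lay between 0.976 and 1.02. Ptges3, the cytosolic synthase also known as the Hsp90 cochaperone p23, was at 106.4, 104.9, 136.7, 123.9 and 113.4 CPM. Both libraries at 4 h lay above the control, with ratios of 1.28 (1.21 to 1.36) and 1.16 (1.10 to 1.24). At 4 h its log2 fold change was 0.29 ± 0.17 (SE), with an adjusted p of 0.558 from edgeR. Ptges3-ps, an annotated processed copy on chromosome 6, had between 177 and 226 counts, and how reads were split between the copies is uncertain.

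Per kilobase, Ptges3 held 89.4% of the summed level of the 3 prostaglandin E synthases in the control and between 88.5% and 91.5% after seizures. Ptges held 0.595% without treatment, 1.68% after 1 h, 1.88% (mouse 1) and 1.35% (mouse 2) after 4 h, and 1.61% after 8 h. Although higher than in the control, Ptges thus remained the least abundant of the 3 in every library.

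Ptgds (ENSMUSG00000015090.13), the lipocalin-type synthase of prostaglandin D2 that is known from leptomeninges, choroid plexus and oligodendrocytes, was the most abundant of the 10 genes per length. It was at 341.9 CPM without treatment, 361.0 after 1 h, 407.4 (mouse 1) and 441.7 (mouse 2) after 4 h, and 360.2 after 8 h. Every library from treated mice lay above the control, by ratios between 1.05 and 1.29, and both libraries at 4 h lay above the others. At 4 h its log2 fold change was 0.31 ± 0.16 (SE), with an adjusted p of 0.518 from edgeR. The oligodendrocyte list (6 of 6 detected, most abundant Mbp) summed to 3341, 4165, 3936, 5072 and 3303 CPM, being highest in mouse 2 as Ptgds was. The list of leptomeninges and fibroblasts (6 of 6 detected, most abundant Dcn; Igf2 at 0 in mouse 1 and at 8 h) summed to 77.1, 45.2, 64.7, 67.6 and 55.6 CPM. The choroid plexus list was at 29.3 CPM in mouse 1 and 4294 CPM in mouse 2. The part of these cell types in the level of Ptgds was not tested.

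**Figure D5:**
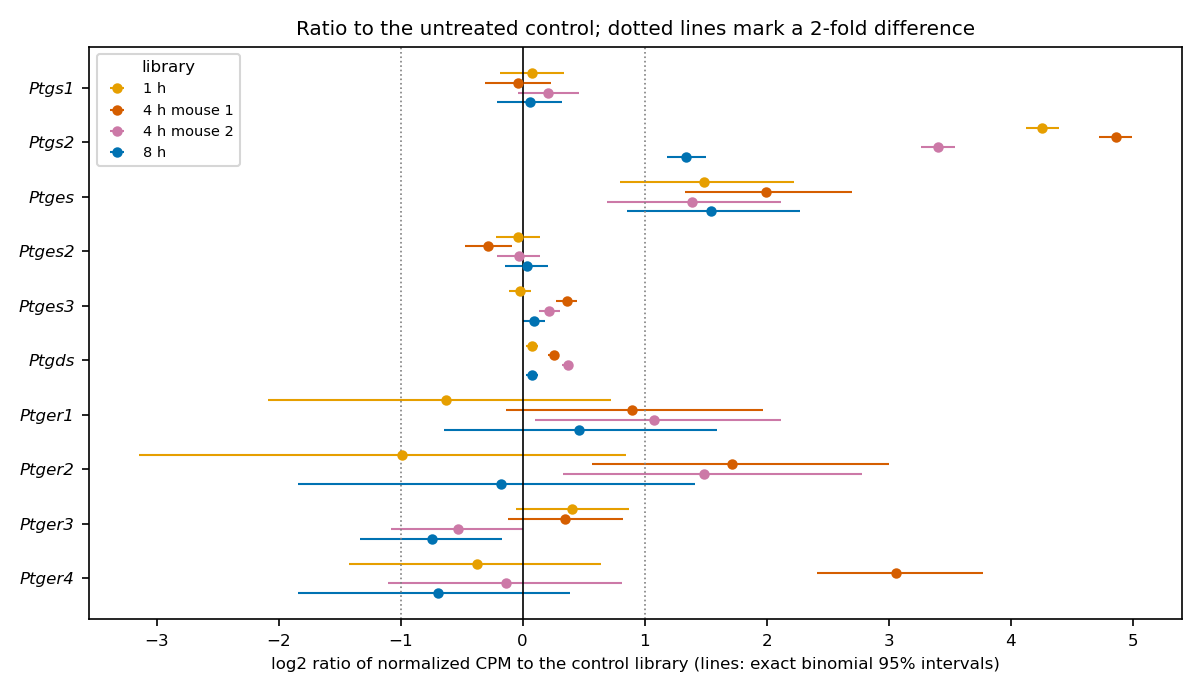
Log2 ratio of normalized CPM to the control library (horizontal axis) for the 10 genes at 1 h, 4 h (mouse 1 and mouse 2) and 8 h (points), with exact binomial 95% intervals (lines) and dotted lines at a 2-fold difference. Ptgs2 and Ptges lie beyond the 2-fold line in all 4 libraries, and the intervals of Ptger1 and Ptger2 are wide because they rest on between 4 and 28 counts.

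Together with Ptges, the EP receptors were the least abundant genes of the group per kilobase in every library. Their summed counts were 121 without treatment, 116 after 1 h, 284 (mouse 1) and 121 (mouse 2) after 4 h, and 76 after 8 h. Mouse 1 was the high library and 8 h the lowest. Per kilobase, Ptger3 made up 63.7% of the summed level without treatment, 77.7% after 1 h, 30.9% (mouse 1) and 41.1% (mouse 2) after 4 h, and 52.9% after 8 h.

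Ptger4 (ENSMUSG00000039942.15), the EP4 receptor that raises cyclic AMP, had 22 counts without treatment, 15 after 1 h, 155 (mouse 1) and 19 (mouse 2) after 4 h, and 12 after 8 h. In CPM it was at 1.11, 0.853, 9.21, 1.01 and 0.684. Mouse 1 alone was high, and the other 4 libraries overlapped in their Poisson intervals. The ratio to the control was 8.33 in mouse 1 (5.31 to 13.7) and 0.909 in mouse 2 (0.465 to 1.76), and the libraries at 4 h differed more than for 99.9% of genes. The log2 fold change at 4 h, 2.10 ± 1.33 (SE; adjusted p = 0.568 from edgeR), therefore rested on mouse 1 and was -0.12 without it. Over 9 alternative fits the adjusted p ranged from 0.000421 to 0.744, with 2 passes. Genes on the opposite strand share 16.5% of its exon length, namely Gm15937, with 10 counts in mouse 1 and 13 in mouse 2, and Ttc33, with 480 and 613, and how reads in the shared bases were assigned is not known. The low choroid plexus list of mouse 1 (29.3 CPM) coincided with the high Ptger4 value. Other markers stood apart in this library too. The endothelium list (5 of 5 detected, most abundant Flt1) summed to 137.0 CPM in mouse 1, 100.8 in mouse 2 and 121.3 in the control, but its genes differed in direction in mouse 1, from 0.247 times the control for Slco1a4 to 3.40 times for Cdh5 (0.617 and 1.35 times in mouse 2). The red cell list (3 of 3 detected, most abundant Hbb-bs) summed to 202.0 and 128.9 CPM, against 115.1 in the control. The part of these cell types was not tested.

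Ptger2, the EP2 receptor that also raises cyclic AMP, had 9 counts without treatment, 4 after 1 h, 25 (mouse 1) and 24 (mouse 2) after 4 h, and 7 after 8 h. Here both libraries at 4 h were high, although the Poisson interval of mouse 2 (0.813 to 1.89 CPM) just overlapped that of the control (0.207 to 0.858 CPM). The ratio was 3.28 in mouse 1 (1.48 to 7.99) and 2.81 in mouse 2 (1.26 to 6.86). Because the libraries at 4 h, where Ptger2 was high, were also the only ones that brought it past the filter, no test of it at 4 h is given.

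Ptger3, the EP3 receptor that lowers cyclic AMP, had 76 counts without treatment, 89 after 1 h, 82 (mouse 1) and 50 (mouse 2) after 4 h, and 40 after 8 h. The 8 h library was the lowest, with a ratio of 0.598 (0.397 to 0.887), and mouse 1 and mouse 2 lay on opposite sides of the control, with ratios of 1.28 and 0.693. At 8 h its log2 fold change was -0.72 ± 0.60 (SE), with an adjusted p of 1 from edgeR. Ptger1, the EP1 receptor coupled to calcium signals, had 14, 8, 22, 28 and 17 counts. Only in mouse 2 did the interval of its ratio, 2.11 (1.07 to 4.33), lie above 1. The counts of Ptger1 are uncertain because the strand setting of the counting is not given.

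Other genes of the pathway were taken from lists of known enzymes, receptors and transporters. Of 33 such genes all were found, 28 passed the filter, and 0 passed the edgeR test in any comparison with the control, beside 0%, 0.00506% and 0% of all genes at 1, 4 and 8 h. Of these 28 genes, 1 was at least 2-fold higher at 1 h (5.41% of all genes), in both libraries at 4 h (4.96%) and at 8 h (6.79%), which was Pla2g3 each time, and 1 was at least 2-fold lower at 8 h (Slco2a1; 3.37% of all genes). The median log2 fold change of the 28 genes was -0.09, -0.24 and -0.24 at 1, 4 and 8 h, beside -0.01, 0.01 and 0.01 for all genes tested.

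Of 7 genes of arachidonate release, all 7 were tested, with a median log2 fold change of -0.23, -0.24 and -0.19 at 1, 4 and 8 h. Pla2g3, a secreted phospholipase, had 27 counts without treatment, 49 after 1 h, 107 (mouse 1) and 133 (mouse 2) after 4 h, and 57 after 8 h. Both libraries at 4 h were the highest, at 4.68 (3.05 to 7.43) and 5.19 (3.41 to 8.16) times the control, with a log2 fold change of 2.21 (adjusted p = 0.259 from edgeR). Mgll, the monoacylglycerol lipase that supplies arachidonate in brain, was the most abundant of the list, at 153.7, 178.2, 123.8, 135.6 and 142.8 CPM. Pla2g5 had 73 counts in the control and 81 in mouse 2, but 11 in mouse 1, and Pla2g4e ranged from 54 counts at 1 h to 23 at 8 h. Pla2g4a, the cytosolic phospholipase, had between 55 and 78 counts in all libraries.

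Of 6 other terminal synthases, all 6 were tested, 0 were past a 2-fold difference in either direction, and the medians were -0.09, -0.33 and -0.22. Prxl2b, a prostamide and prostaglandin F synthase, was the most abundant, at 42.8 CPM without treatment, 39.6 after 1 h, 33.0 (mouse 1) and 34.4 (mouse 2) after 4 h, and 28.5 after 8 h. Each library from treated mice lay below the control, and the intervals of the ratio at 4 and 8 h lay below 1 (0.666 at 8 h, 0.595 to 0.744). Cbr1, a carbonyl reductase, had 707, 521, 403, 510 and 436 counts, likewise below the control throughout. Tbxas1, the thromboxane synthase, had 39, 32, 36, 36 and 56 counts, with a ratio of 1.63 (1.06 to 2.52) at 8 h.

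Of the 6 genes for other prostanoid receptors and the FP receptor partner, 3 were tested, 0 were past a 2-fold difference, and the medians were -0.13, -0.38 and 0.38. Ptgfrn, the partner of the FP receptor, was at 21.9, 22.6, 27.3, 35.5 and 31.0 CPM, with the highest ratio in mouse 2 (1.62, 1.43 to 1.83). The receptors themselves were sparse. Ptgir had 0 counts in 4 libraries and 2 at 8 h, at or below the floor, and Ptgdr, Ptgfr, Ptgdr2 and Tbxa2r had at most 20 counts in any library.

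Of 6 genes of transport and breakdown, all 6 were tested, 0 were at least 2-fold higher and 1 was at least 2-fold lower, at 8 h, with medians of 0.08, -0.17 and -0.32. Slco2a1, the prostaglandin transporter, had 74 counts without treatment, 37 after 1 h, 54 (mouse 1) and 38 (mouse 2) after 4 h, and 30 after 8 h. All 4 libraries from treated mice lay below the control, with the lowest ratio at 8 h (0.460, 0.291 to 0.712), a log2 fold change of -1.07 (adjusted p = 1 from edgeR). Hpgd, which inactivates prostaglandins, had 93, 95, 60, 82 and 64 counts, and each interval of its ratio included 1. Ptgr2 was the most abundant, at between 39.9 and 46.9 CPM, and Zadh2 had 208, 138, 113, 189 and 149 counts.

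Of 8 genes of the lipoxygenase branch, which competes for the same substrate, 6 were tested and 0 were past a 2-fold difference at 1 h, in both libraries at 4 h or at 8 h. The medians were -0.07, -0.03 and -0.27. Lta4h was the most abundant, at between 28.8 and 34.7 CPM. Alox12b had 174 counts without treatment, 144 after 1 h, 50 (mouse 1) and 98 (mouse 2) after 4 h, and 94 after 8 h, with both libraries at 4 h below the control. Ltc4s had 54 counts in the control, 63 in mouse 2 and 12 in mouse 1, and Alox8 had between 74 and 95 counts before 8 h and 48 at 8 h. Alox15 had at most 1 count. Pla2g5 and Ltc4s were thus low in mouse 1, the library with the low choroid plexus list, and the part of that tissue was not tested.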

How the data were processed

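Hippocampal RNA of 5 libraries in 4 groups was analysed. The authors prepared stranded total RNA libraries and deposited the count of reads on each of 55385 genes, without normalization. The submitters' processing notes name STAR 2.5.1b, HTSeq and the build GRCm38.p4, but the sources used here do not give the HTSeq version, the strand setting or the release of the annotation. Reads on no gene were 24.7%, 29.0%, 33.1%, 25.3% and 30.9% of all deposited reads in time order, mouse 1 before mouse 2, and together with ambiguous and multiply aligned reads they were left out. GENCODE M21 held 55144 of the gene identifiers, of which 54487, including all 10 studied genes, had an unchanged version. Positions, exon lengths (the union of exons) and untranslated regions came from that release and promoters from RefSeq, which held 9 of the 10 genes.

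The statistics used edgeR 4.0.16 under R 4.3.3. The 19768 genes kept by filterByExpr were scaled by TMM and fitted with a quasi-likelihood model of the 4 groups over all 5 libraries (1 residual degree of freedom). Log2 fold changes used a prior count of 2, SE came from the coefficient and its F statistic, and p-values were adjusted over all genes by Benjamini-Hochberg with a threshold of 0.05. The common biological coefficient of variation was 0.238. The script was tested on simulated data. Alternatives tried were scaling by library size alone or by median-of-ratios factors, DESeq2 1.42.0, limma-voom (limma 3.58.1), assumed coefficients of variation of 0.2 and 0.4, no filter, at least 10 counts in every library, a smaller prior count and leaving out each 4 h library. Tables and figures were made with Python 3.11.15, numpy 2.4.6, scipy 1.17.1, pandas 2.3.3 and matplotlib 3.10.9.

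The genes and lists were chosen with earlier results of these data known. The text names all 10 genes, genes carrying their names nearby, 6 early genes, and of each list the most abundant gene and up to 3 genes with the largest ratio to the control in any library among those with at least 50 counts in a library. Other genes named from the lists were chosen after their values were seen. For genes with at least 50 counts that were at least 2-fold from the control in at least 2 libraries in the same direction (Ptgs2 and Ptges), the 5 nearest genes by Euclidean distance of log2 ratios are given.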

Additional observations from a re-analysis of the deposited data

How the results depend on the processing

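Of 500 log2 fold changes of the 10 genes under the alternatives, 426 had a test. Of these, 399 kept their direction and their side of the threshold, 22 kept their direction and passed, and 5 turned sign. The 399 include the values with the smaller prior count, which cannot change a p-value and so had to keep their side. The other 74 had no test, of which 65 kept their direction and 9 turned sign. Those were DESeq2 values without an adjusted p and the values without a 4 h library, which leaves no residual degree of freedom and so no count of passing genes. No paired analysis was possible because the labels name no pairs of libraries across groups. Scaling by library size alone moved the median of all genes by -0.12 on the log2 scale at 4 h against the control and by 0.14 at 8 h against 4 h, and other scalings by less than this. Where no cause is named, the cause was not tested.

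Genes passing at 1 h against the control numbered 56 with DESeq2, 238 and 40 with assumed coefficients of variation of 0.2 and 0.4, 57 with library size alone, 285 with no filter and 1 with at least 10 counts in every library. At 4 h they numbered 238, 916, 81, 237, 1300 and 0 in the same order, and 0 with limma-voom and with median-of-ratios factors. At 8 h they numbered 33, 184, 12, 22 and 279 (DESeq2, 0.2, 0.4, library size alone, no filter). For 4 h against 1 h they numbered 109, 513, 33, 67 and 725, and 0 with at least 10 counts, with limma-voom and with median-of-ratios factors. For 8 h against 4 h they numbered 129, 660, 48, 120 and 957. Of the 10 genes, at 1 h 1 passed with coefficients of 0.2 and 0.4, with library size alone and with no filter. At 4 h 3 passed with 0.2 and with no filter, and 1 with DESeq2, 0.4 and library size alone. At 8 h 1 passed with no filter. For 4 h against 1 h 2 passed with 0.2 (Ptger4, and Ptger2, which the filter kept only through the 4 h libraries, so that its pass does not count as a test) and 1 with no filter (Ptger4), and for 8 h against 4 h 2 with 0.2, 2 with no filter and 1 with library size alone.

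Ptgs2 passed at 1 h with log2 fold changes of 4.25 (0.2 and 0.4), 4.18 (library size alone) and 4.25 (no filter). At 4 h it passed with 4.31 (DESeq2), 4.30 (0.2 and 0.4), 4.15 (library size alone) and 4.28 (no filter). At 8 h it passed with 1.32 (no filter), and for 8 h against 4 h with -2.96 (0.2), -2.80 (library size alone) and -2.96 (no filter). Its log2 fold change of 4 h against 1 h was -0.0252 with library size alone and -0.14 with limma-voom. Ptgs1 with library size alone gave -0.0270 at 4 h, -0.0319 for 4 h against 1 h and 0.10 for 8 h against 4 h.

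Without mouse 1 or without mouse 2, the lowest and highest log2 fold changes at 4 h against the control were -0.51 and 0.34 for Ptger3, -0.12 and 2.94 for Ptger4, -0.0365 and 0.21 for Ptgs1, and 3.39 and 4.85 for Ptgs2. For 4 h against 1 h they were -0.10 and 0.49 for Ptges, -0.25 and 0.00148 for Ptges2, -0.11 and 0.13 for Ptgs1, and -0.86 and 0.60 for Ptgs2. For 8 h against 4 h they were -0.44 and 0.15 for Ptges and -0.15 and 0.0930 for Ptgs1. These values follow the difference between the libraries at 4 h.

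Genes at least 2-fold higher than the control numbered 4118 at 1 h, 2563 at 4 h and 5043 at 8 h with no filter, and 470, 483 and 559 with at least 10 counts in every library. Those at least 2-fold lower numbered 3981, 2045 and 3515 with no filter, 173, 136 and 247 with at least 10 counts, and 457 at 4 h with library size alone, where 1 of the 10 genes was lower at 1 h. With a single 4 h library, an alternative chosen after seeing the data, 1303 (mouse 2) to 2360 (mouse 1) genes were higher and 738 to 1349 lower. Genes with few counts enter or leave with the filter. Depth limits Ptger1, Ptger2 and Ptgs2os2, which rest on few counts.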

Other observations

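Ptger4, with 22 counts without treatment, 15 after 1 h, 155 (mouse 1) and 19 (mouse 2) after 4 h, and 12 after 8 h, was chosen here after its values were seen. By the distance of log2 ratios to the control, the genes most like it among 14312 genes were Adcyap1 (1.02), Ramp3 (1.10), Adamts19 (1.16), Tcf7l2 (1.18) and Ism1 (1.27). Adcyap1, which encodes the neuropeptide PACAP, had 108, 99, 440, 78 and 78 counts in the same order. Ramp3 had 66, 61, 283, 91 and 42 counts, Tcf7l2 53, 47, 220, 79 and 33, Ism1 97, 73, 298, 108 and 59, and Adamts19 10, 5, 77, 18 and 5. All were highest in mouse 1, which follows from choosing them by likeness to Ptger4 and is no separate observation. What set mouse 1 apart in these genes was not tested.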
